A study of Mus musculus with 18 samples.

Results

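The 6 listed genes of primordial germ cell specification, *Prdm1*, *Tfap2c*, *Nanos3*, *Dnd1*, *Kit* and *Itgb3*, were followed by RNA sequencing across 6 kinds of cultured mouse pluripotent stem cell, with 3 samples of each. The genes were taken as a named list and were matched to the deposited identifiers by symbol; the rule used no measured value, although the list was drawn up with earlier results of these data known. They were 6 of the 35773 genes counted. ESCs were naive embryonic stem cells kept in 2i medium with LIF (2iL). AFSCs were primed cells grown in Activin A and FGF2, and ASCs, named advanced pluripotent stem cells, were made from AFSCs by growth in ABCL medium, which combines Activin A, BMP4, the Wnt agonist CHIR99021 and LIF. ESC-ASCs were ESCs moved from 2iL into the same ABCL medium. EpiLCs, epiblast-like cells, and EpiSCs, epiblast stem cells, were the remaining groups. Every sample was labelled wild type and of strain 129S2/SvPasCrl. According to the study's methods, ASC colonies were picked by a GFP reporter under *Oct4* control, a reporter that is itself active in germ cells, and the parent lines came from crosses of mixed background. The labels name neither the line nor the culture behind each replicate, so p-values measure the spread between these samples, which may in part be technical.

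Primordial germ cells, the founders of sperm and eggs, arise in the postimplantation mouse epiblast in response to BMP and Wnt signals. *Prdm1* (encoding BLIMP1) represses the somatic programme in these cells and acts together with *Prdm14* and the AP-2 factor *Tfap2c*. *Nanos3* and *Dnd1* encode RNA-binding proteins that keep the early germ cells alive, *Kit* encodes the receptor tyrosine kinase through which they receive stem cell factor while they migrate, and *Itgb3* encodes the integrin beta chain CD61, a surface marker used to sort germ cell-like cells made in culture. Several of the genes also act outside the germline, *Tfap2c* in trophectoderm and *Kit* in blood and pigment cells. In culture, germ cell-like cells are commonly induced from EpiLCs, which makes the level of these genes before induction of interest in each kind of starting cell.

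In these cells the genes did not move as a set. *Tfap2c*, *Kit* and *Prdm1* were higher in ESCs, ASCs and ESC-ASCs than in EpiLCs and AFSCs. In EpiSCs *Kit* was high again, whereas *Tfap2c* and *Prdm1* stayed below their levels in ESCs, ASCs and ESC-ASCs. Even in ESCs *Prdm1* stood at only percentile 35.6 of tested genes by level. *Nanos3* was high in ESCs, lower in ASCs and was seen with few counts in ESC-ASCs, EpiLCs, AFSCs and EpiSCs. *Itgb3* was low throughout and was not counted at all in EpiSCs, whereas *Dnd1* was highest in EpiLCs and ESC-ASCs. Levels are given as counts divided by a size factor for depth and by exonic length in kb (normalized count per kb), so that they can be set side by side between genes.

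In the GRCm38 assembly with Ensembl release 86, *Prdm1* (ENSMUSG00000038151) lies on chromosome 10 at 44437177 to 44528501 on the minus strand, and *Tfap2c* (ENSMUSG00000028640) on chromosome 2 at 172549593 to 172558622 on the plus strand. *Nanos3* (ENSMUSG00000056155) spans chromosome 8 at 84173731 to 84185217 on the minus strand. *Kit* (ENSMUSG00000005672) spans chromosome 5 at 75574916 to 75656722 and *Itgb3* (ENSMUSG00000020689) chromosome 11 at 104608000 to 104670476, both on the plus strand. The exons of these 5 members overlapped no other annotated exon.

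RefSeq windows just upstream of a RefSeq start were printed for *Prdm1*, *Nanos3* and *Kit*; *Tfap2c*, *Dnd1* and *Itgb3* had none in the sequence table. The *Kit* window ends at the start of the Ensembl gene, whereas the RefSeq starts of *Prdm1* and *Nanos3* lie inside the Ensembl spans given above, so that their windows do not flank the outermost annotated start. They are shown because these genes were all higher in ESCs than in EpiLCs and AFSCs while parting in ESC-ASCs and EpiSCs, and because AP-2 factors such as TFAP2C bind a short palindrome that can be looked for in them. Capitals mark that AP-2 motif, written GCCNNNGGC. The windows were cut at the first annotated exon and read 5′ to 3′ on the strand of the gene, *Prdm1* from chr10:44458749-44458998 (minus strand), *Nanos3* from chr8:84176553-84176802 (minus strand) and *Kit* from chr5:75574737-75574915 (plus strand), all in GRCm38.p6.
Prdm1: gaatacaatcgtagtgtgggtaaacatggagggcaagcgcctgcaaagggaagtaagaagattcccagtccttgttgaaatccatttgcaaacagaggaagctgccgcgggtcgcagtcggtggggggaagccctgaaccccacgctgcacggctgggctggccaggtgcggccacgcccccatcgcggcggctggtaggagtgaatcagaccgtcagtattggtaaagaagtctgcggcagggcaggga
Nanos3: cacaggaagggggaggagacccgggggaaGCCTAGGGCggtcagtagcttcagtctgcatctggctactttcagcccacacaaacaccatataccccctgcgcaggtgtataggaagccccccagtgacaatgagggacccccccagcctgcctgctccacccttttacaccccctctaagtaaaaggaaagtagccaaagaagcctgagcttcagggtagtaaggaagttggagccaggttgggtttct
Kit: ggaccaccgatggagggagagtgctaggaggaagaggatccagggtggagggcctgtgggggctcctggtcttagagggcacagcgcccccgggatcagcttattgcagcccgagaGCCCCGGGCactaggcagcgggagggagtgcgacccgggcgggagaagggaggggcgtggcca
*Nanos3* and *Kit* each held 1 AP-2 match and *Prdm1* held 0. The motif occurred in 13.7% of 32851 upstream windows cut to 250 bases and in 9.18% of those cut to 179 bases, the length of the *Kit* window, so that a match was not rare. Neither the T-box motif TCACACC nor the E-box CACGTG, searched on both strands, occurred in the 3 windows, against 3.33% and 6.02% of all windows of 250 bases. The *Prdm1* window held 15 CpG dinucleotides and was 59.2% G and C, the *Kit* window 10 CpG at 69.3% and the *Nanos3* window 3 CpG at 56.4%. A match describes letters only and says nothing of binding.

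Total counts lay between 4961934 and 9906473 per sample in 5 groups and between 17813619 and 18071600 in ESC-ASCs, so that depth cannot be told apart from cell type for ESC-ASCs. Replicate 1 of the ESCs, ASCs, EpiLCs and AFSCs stood apart from the other samples of its group. In those 4 groups a chi-square per degree of freedom between replicates was 21.5 to 100.4 for pairs with replicate 1 and 1.65 to 11.9 for replicates 2 and 3, against 1.96 to 11.3 in ESC-ASCs and EpiSCs. Calls that change without these 4 samples are also given without them. The labelled cell types were checked against markers by their summed level per kb. Naive pluripotency genes (5 genes) summed to 2786 to 4697 in ESCs, ASCs and ESC-ASCs and to 8.51 to 121 elsewhere, while formative and primed genes (6 genes) summed to 205 to 329 and to 1723 to 4059, respectively. These sums separate the first 3 labels from the last 3 and do not identify each label within them. Differences were tested in all 15 pairs of cell types by the quasi-likelihood F test of edgeR, adjusted by Benjamini and Hochberg's method over 16901 genes, and called at an adjusted p below 0.05. All 6 members passed the filter on low counts.

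**Figure D1:**
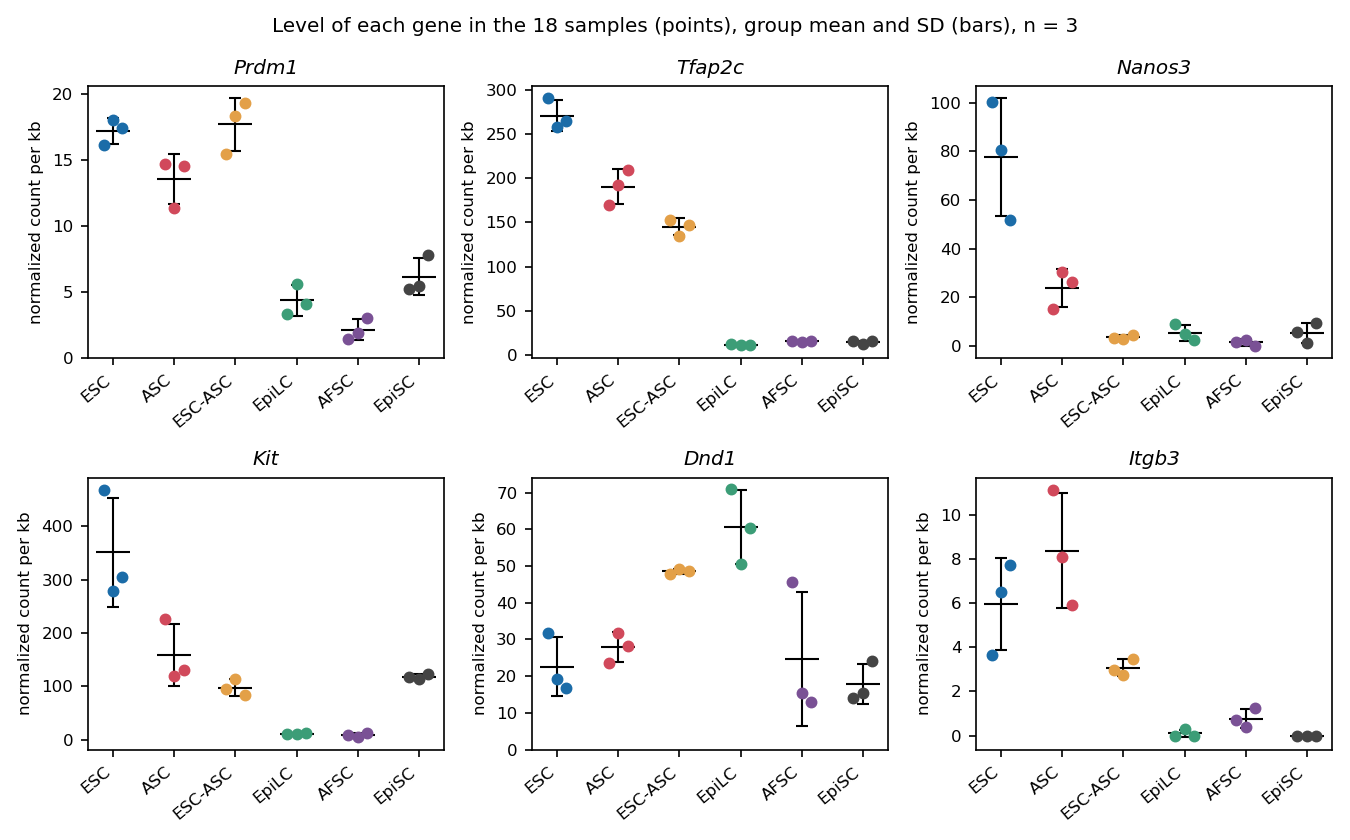
Normalized count per kb of the 6 genes in the 18 samples (points, 3 per cell type), with the group mean and SD as bars, on axes that differ between genes. *Tfap2c* separated ESCs, ASCs and ESC-ASCs (134 to 290 per kb) from the other cell types (11.3 to 16.5), whereas *Dnd1* did not follow that split.

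Among the transcription factors, *Tfap2c* showed the clearest division. Its level per kb was 290, 258 and 264 in the 3 ESC samples, 170, 192 and 209 in ASCs, and 153, 134 and 147 in ESC-ASCs. It was 13.2, 11.3 and 11.3 in EpiLCs, 16.5, 15.4 and 15.8 in AFSCs, and 15.7, 13.2 and 15.6 in EpiSCs. All samples of the first 3 groups lay above all samples of the last 3, and ESCs, ASCs and ESC-ASCs did not overlap one another. In ESCs *Tfap2c* stood at percentile 86.4 of the tested genes by level, and in EpiLCs at percentile 30.6.

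*Tfap2c* was lower than in ESCs by 4.49 on the log2 scale in EpiLCs (SE 0.14), a 22.5-fold difference (adjusted p = 9.92e-15). It was 16.9-fold lower in AFSCs (adjusted p = 1.34e-14) and 18.4-fold lower in EpiSCs (adjusted p = 6.98e-15). Differences among the 3 high groups were smaller but passed the test. ASCs were 1.44-fold below ESCs (log2 fold change -0.53, SE 0.11, adjusted p = 0.000615), ESC-ASCs 1.88-fold below ESCs (adjusted p = 8.42e-07) and ESC-ASCs 1.31-fold below ASCs (adjusted p = 0.00646). In all, 13 of the 15 pairs were called, where the share of all tested genes called in a pair ran from 39.4% to 72.2%. The remaining pairs were EpiSCs against EpiLCs (log2 fold change 0.29, 95% interval -0.01 to 0.60, adjusted p = 0.148) and EpiSCs against AFSCs (-0.12, -0.42 to 0.18, adjusted p = 0.586). The called difference with the highest adjusted p was that of AFSCs over EpiLCs by 0.41 (SE 0.15, adjusted p = 0.0371). That call was lost under several alternatives. Its adjusted p was 0.145 when only the 6 samples of the pair were fitted. It was 0.0547 to 0.11 without EpiLC replicate 2 or 3 or any 1 AFSC sample.

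*Prdm1*, the master repressor of the somatic programme in germ cells, showed the same division at a far lower level. Its normalized count per kb was 16.1, 18 and 17.5 in ESCs, 14.7, 11.3 and 14.6 in ASCs, and 15.5, 18.3 and 19.3 in ESC-ASCs. It was 3.37, 5.64 and 4.09 in EpiLCs, 1.47, 1.90 and 3.02 in AFSCs, and 5.26, 5.46 and 7.82 in EpiSCs. ESC and ESC-ASC samples overlapped, as did EpiLC and EpiSC samples, and AFSC samples were the lowest. Even in ESCs *Prdm1* stood at percentile 35.6 of tested genes, and the AFSC values rest on 31 counts in all.

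*Prdm1* was 7.85-fold lower in AFSCs than in ESCs (log2 fold change -2.97, SE 0.27, adjusted p = 1.53e-08), 3.87-fold lower in EpiLCs (adjusted p = 1.11e-06) and 2.79-fold lower in EpiSCs (adjusted p = 1.52e-05). ASCs were 6.06-fold above the AFSCs they came from (adjusted p = 1.3e-07). Of the 15 pairs, 11 were called. ESCs, ASCs and ESC-ASCs were not separated from one another. The log2 fold change was -0.37 for ASCs against ESCs (95% interval -0.82 to 0.08, adjusted p = 0.158), 0.02 for ESC-ASCs against ESCs (-0.41 to 0.45, adjusted p = 0.942) and 0.39 for ESC-ASCs against ASCs (-0.03 to 0.82, adjusted p = 0.116). Without the 4 samples that stood apart, the last of these reached 0.43 with an adjusted p of 0.0465. Within the low groups EpiSCs exceeded AFSCs by 2.81-fold (adjusted p = 0.000431) and EpiLCs exceeded AFSCs by 2.03-fold (adjusted p = 0.00987). The second of these was lost without EpiLC replicate 2 (log2 fold change -0.77, adjusted p = 0.0706) and when only the 6 samples of the pair were fitted (adjusted p = 0.0612). EpiSCs against EpiLCs gave 0.47 (-0.06 to 1.01, adjusted p = 0.137).

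Of the RNA-binding factors, *Nanos3* was largely a gene of ESCs and, at a lower level, ASCs. The level per kb was 100.2, 80.6 and 51.9 in ESCs, 15.2, 30.3 and 26.1 in ASCs, and 3.28, 2.64 and 4.35 in ESC-ASCs. In EpiLCs it was 8.75, 4.79 and 2.32, in AFSCs 1.46, 2.51 and 0, and in EpiSCs 5.68, 0.954 and 9.30. Every ESC sample lay above every ASC sample, and every ASC sample above all samples outside these groups. The transcript is short, at 924 exonic bases, so that the levels rest on few counts, 154 in the 3 ESC samples, 62 in ASCs, 19 in ESC-ASCs, 14 each in EpiLCs and EpiSCs, and 3 in AFSCs.

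*Nanos3* was 3.22-fold lower in ASCs than in ESCs (log2 fold change -1.69, SE 0.38, adjusted p = 0.00118), and 21.7-fold lower in ESC-ASCs (-4.44, SE 0.44, adjusted p = 7.97e-08). Thus the cells grown in ABCL medium differed, with ESC-ASCs 6.74-fold below ASCs (-2.75, SE 0.49, adjusted p = 0.000126). Their origin cannot be told apart here from the greater depth of the ESC-ASC libraries or from the lines used. EpiLCs and EpiSCs were 14.3-fold and 14.5-fold below ESCs (adjusted p = 1.18e-06 and 7.81e-07). Against the 3 counts of AFSCs, the ratio of the ESC level was 58.3 (95% counting interval 19.6 to 285.9) and that of the ASC level 19.0 (6.20 to 94.5); both pairs were called (adjusted p = 1.35e-07 and 6.16e-05). Such counting intervals leave out the spread between cultures. In all, 9 of 15 pairs were called, and the 6 others were those among ESC-ASCs, EpiLCs, AFSCs and EpiSCs, where a difference was not detectable at this depth. For EpiSCs against EpiLCs, the log2 fold change of -0.02 carried an interval of -1.43 to 1.39 (adjusted p = 0.99). EpiSCs against AFSCs passed the test once EpiSC replicate 2, with 1 count, was left out (2.48, adjusted p = 0.0291).

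*Dnd1*, whose product protects germline mRNAs from microRNAs and partners NANOS proteins, had a different order from the rest. Its level per kb was 70.9, 50.6 and 60.3 in EpiLCs, 47.8, 49.2 and 48.6 in ESC-ASCs, and 23.7, 31.9 and 28.2 in ASCs. It was 31.8, 19.3 and 16.7 in ESCs, 45.8, 15.4 and 12.9 in AFSCs, and 14.2, 15.4 and 24.1 in EpiSCs. EpiLC and ESC-ASC samples lay above every ESC, ASC and EpiSC sample, and the AFSC samples were split, with replicate 1 well above the others (82 counts against 32 and 30).

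*Dnd1* was 2.77-fold higher in EpiLCs than in ESCs (log2 fold change 1.47, SE 0.35, adjusted p = 0.00137) and 2.20-fold higher in EpiLCs than in ASCs (1.14, SE 0.33, adjusted p = 0.00614). ESC-ASCs exceeded ESCs by 2.20-fold (1.14, SE 0.34, adjusted p = 0.00779). EpiSCs were 3.38-fold below EpiLCs (adjusted p = 0.000296) and 2.68-fold below ESC-ASCs (adjusted p = 0.000955). These calls, with AFSCs against EpiLCs (2.51-fold lower, adjusted p = 0.00334), AFSCs against ESC-ASCs (1.99-fold lower, adjusted p = 0.0131) and ESC-ASCs against ASCs (1.75-fold higher, adjusted p = 0.0458), made up 8 of 15 pairs. The last was lost in 11 of the 18 fits that left out 1 sample, with an adjusted p of up to 0.138 without ASC replicate 1, and was 0.0818 by DESeq2. AFSCs against ESC-ASCs was lost without AFSC replicate 2 or 3 (adjusted p = 0.0745 and 0.0867) and when only the 6 samples of the pair were fitted (adjusted p = 0.0648).

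The standing of *Dnd1* in AFSCs rested on replicate 1. With it, AFSCs did not differ detectably from ASCs (log2 fold change -0.19, 95% interval -0.93 to 0.55, adjusted p = 0.66). Without that sample AFSCs were lower (-0.96, adjusted p = 0.00652), and without all 4 samples that stood apart they were lower by 1.09 (adjusted p = 0.000449). Under the same omission ASCs passed the test against ESCs (0.75, adjusted p = 0.0102) and EpiSCs against ASCs (-0.75, adjusted p = 0.00264), both uncalled with all samples (0.33, adjusted p = 0.465, and -0.62, adjusted p = 0.133). EpiLCs and ESC-ASCs were not separated (0.34, -0.31 to 0.98, adjusted p = 0.351), although they were when only the 6 samples of the pair were fitted (adjusted p = 0.0406).

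*Dnd1* (ENSMUSG00000044595) lies on chromosome 18 at 36763671 to 36766214 on the minus strand and shares 38 exonic bases with *Wdr55* on the plus strand. Fragments there were counted for both genes, because strand was not used and fragments that overlap several genes were counted for each. *Wdr55* had normalized counts of 659 to 822 in EpiLCs, 621 to 758 in AFSCs and 530 to 564 in EpiSCs, against 213 to 324 in ESCs, ASCs and ESC-ASCs. The normalized count of *Dnd1* in AFSC replicate 2 was 37.0 beside 717 for *Wdr55*, and in ESC-ASC replicate 2 it was 119 beside 319. Samples with high *Wdr55* were therefore found both with high and with low *Dnd1*. The number of fragments that fell in the shared 38 bases is not known, and their part in the *Dnd1* values was not tested.

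**Figure D2:**
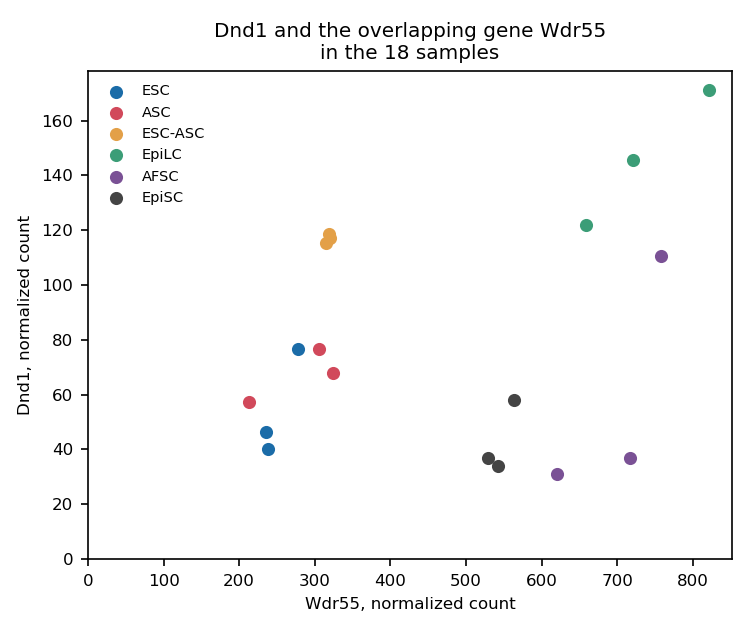
Normalized count of *Dnd1* (vertical axis) against that of *Wdr55* (horizontal axis), the gene whose exons it overlaps by 38 bases, with 1 point per sample coloured by cell type. EpiLC samples were high in both, AFSC replicates 2 and 3 and the EpiSC samples were high in *Wdr55* and low in *Dnd1*, and ESC-ASC samples showed the reverse.

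Of the surface proteins, the receptor *Kit* was the most abundant of the 6 genes per kb in ESCs. Its level was 468, 279 and 305 in ESCs, 226, 120 and 131 in ASCs, and 94.9, 114 and 83.8 in ESC-ASCs. It was 10.2, 11.4 and 12.0 in EpiLCs, 8.46, 5.20 and 13 in AFSCs, and 118, 114 and 123 in EpiSCs. ESC samples were the highest without overlap, EpiLC and AFSC samples the lowest, and the EpiSC samples fell within the range spanned by ASCs and ESC-ASCs. Replicate 1 was the highest sample in both ESCs and ASCs.

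*Kit* was 30.9-fold lower in EpiLCs than in ESCs (log2 fold change -4.95, SE 0.30, adjusted p = 7.31e-11) and 38.8-fold lower in AFSCs (-5.28, SE 0.31, adjusted p = 2.95e-11). EpiSCs, by contrast, were 10.4-fold above EpiLCs (3.38, SE 0.29, adjusted p = 1.15e-08) and 13-fold above AFSCs (3.70, SE 0.29, adjusted p = 9.6e-09), although *Tfap2c* was low in all 3. ASCs were 2.23-fold and ESC-ASCs 3.60-fold below ESCs (adjusted p = 0.000902 and 4.72e-06), and EpiSCs were 2.98-fold below ESCs (adjusted p = 2.33e-05). In total 12 of 15 pairs were called. EpiSCs were not separated from ASCs (-0.42, 95% interval -0.94 to 0.10, adjusted p = 0.143) or, in the fit of all samples, from ESC-ASCs (0.27, -0.25 to 0.80, adjusted p = 0.329, and 0.0231 with only the 6 samples of the pair), nor AFSCs from EpiLCs (-0.33, -0.96 to 0.30, adjusted p = 0.392). ESC-ASCs were 1.62-fold below ASCs (-0.70, SE 0.25, adjusted p = 0.0263), a call that ASC replicate 1 decided, since without it the log2 fold change was -0.35 (adjusted p = 0.228); it was also lost without ESC-ASC replicate 1 or 3 (adjusted p = 0.0792 and 0.112) and without the 4 samples that stood apart (-0.38, adjusted p = 0.0617). Because the samples are bulk cultures, fewer expressing cells and less RNA per cell cannot be told apart here.

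*Itgb3* was the least abundant member. Its level per kb was 3.67, 6.51 and 7.75 in ESCs, 11.2, 8.10 and 5.95 in ASCs, and 3.0, 2.73 and 3.49 in ESC-ASCs. EpiLCs gave 0, 0.30 and 0, AFSCs gave 0.685, 0.392 and 1.23, and EpiSCs gave 0 in all 3 samples. ESCs, ASCs and ESC-ASCs lay above every sample of the other groups. The counts summed to 85 in ESCs, 139 in ASCs, 109 in the deeper ESC-ASC libraries, 2 in EpiLCs, 12 in AFSCs and 0 in EpiSCs.

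For EpiSCs, a total of 3 counts over the group was taken as the limit that a count of 0 allows. The mean *Itgb3* level of the other group exceeded that limit 34.6-fold in ESCs, 48.6-fold in ASCs, 17.8-fold in ESC-ASCs and 4.45-fold in AFSCs. These ratios take that mean as exact. They leave out its own counting error, which matters most for the 12 counts of AFSCs. Against the 2 counts of EpiLCs, the ratio was 55.0 for ESCs (95% counting interval 14.8 to 461.7) and 72.7 for ASCs (19.7 to 606.2). All of these pairs were called, among 13 of 15. ASCs were 10.3-fold above AFSCs (log2 fold change of AFSCs against ASCs -3.36, SE 0.45, adjusted p = 5.54e-06). ESC-ASCs were 2.71-fold below ASCs (-1.44, SE 0.32, adjusted p = 0.00145) and 2.03-fold below ESCs (-1.02, SE 0.34, adjusted p = 0.0158). The difference between ESC-ASCs and ESCs was lost without ESC replicate 3 (-0.80, adjusted p = 0.102), ESC replicate 2 (adjusted p = 0.0518) or ESC-ASC replicate 2 (adjusted p = 0.0599). ASCs and ESCs were not separated (0.42, 95% interval -0.28 to 1.12, adjusted p = 0.308). The call of AFSCs over EpiLCs rested on 12 counts against 2 (ratio 6.84, counting interval 1.52 to 62.9, adjusted p = 0.0304) and was lost without AFSC replicate 3 (adjusted p = 0.157), EpiLC replicate 1 (0.0863) or EpiLC replicate 3 (0.0939), and without the 4 samples that stood apart (2.25, adjusted p = 0.0574).

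**Figure D3:**
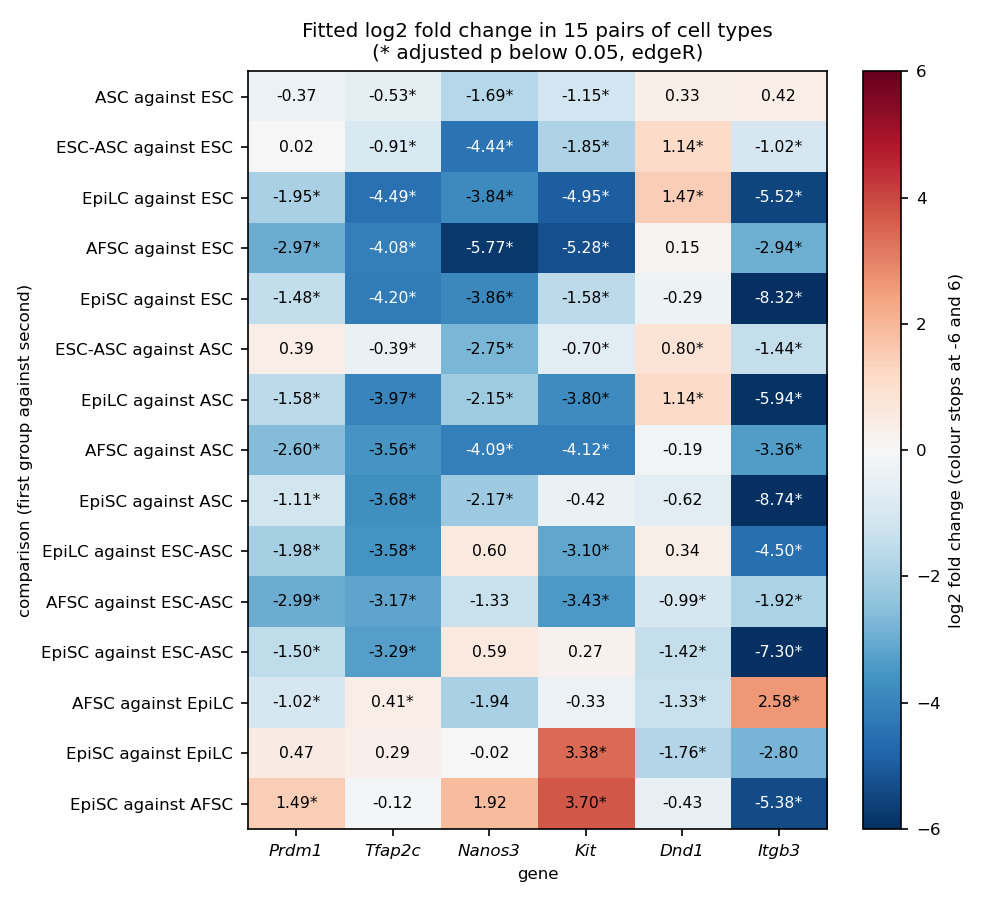
Fitted log2 fold change of the 6 genes (columns) in the 15 pairs of cell types (rows), the first group against the second, coloured from blue (lower) to red (higher), with an asterisk where the adjusted p was below 0.05. *Kit* was higher in EpiSCs than in EpiLCs (3.38) and AFSCs (3.70), and *Dnd1* was higher in EpiLCs than in ESCs (1.47); the sizes of *Itgb3* values against EpiLCs and EpiSCs and of *Nanos3* against AFSCs rest on 0 to 3 counts.

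Read by comparison, the members were set beside all tested genes. In ASCs against ESCs, 3 members were lower (*Tfap2c*, *Nanos3* and *Kit*) and 0 higher, where 50.3% of all tested genes were called and 23.9% were lower. In ESC-ASCs against ESCs, 4 were lower and 1, *Dnd1*, was higher, with a background of 60.1% called and 29.6% lower. EpiLCs against ESCs gave 5 lower and 1, again *Dnd1*, higher (background 55.3%, of which 26.6% lower), and the median log2 fold change was -4.17 over the members and 0.06 over all genes. AFSCs against ESCs gave 5 lower and 0 higher (background 60.5%, 30.8% lower) with a median of -3.53, and EpiSCs against ESCs 5 lower and 0 higher (background 61.2%, 32% lower) with a median of -2.72. These 5 comparisons share the ESC samples. A majority of all tested genes were thus called in each of these comparisons, while the members that were called lay mostly on the lower side.

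Against ASCs, ESC-ASCs had 4 members lower and 1 higher (background 50.7%, 27.7% lower), EpiLCs 5 lower and 1 higher (59.8%, 31.4% lower), AFSCs 5 lower and 0 higher (64%, 32.8% lower) and EpiSCs 4 lower and 0 higher (66.5%, 35.9% lower). Against ESC-ASCs, 4 were lower and 0 higher in EpiLCs (64.1%, 31.9% lower), 5 lower and 0 higher in AFSCs (69%, 35.3% lower) and 4 lower and 0 higher in EpiSCs (72.2%, 38.2% lower). Among the low groups the directions were mixed. AFSCs against EpiLCs had 2 higher (*Tfap2c* and *Itgb3*) and 2 lower (*Prdm1* and *Dnd1*) with a background of 47.1%, 24.4% lower. In this pair the calls of *Tfap2c*, *Itgb3* and *Prdm1* were each lost under alternatives given above. EpiSCs against EpiLCs had 1 higher, *Kit*, and 1 lower, *Dnd1* (48.6%, 27% lower), and EpiSCs against AFSCs had 2 higher, *Prdm1* and *Kit*, and 1 lower, *Itgb3* (39.4%, 21.6% lower).

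ABCL medium was entered from opposite sides, AFSCs giving ASCs and ESCs giving ESC-ASCs, so that each gene can be compared between starting cell type and derivative; whether the ESC samples are of the same line as the ESC-ASCs is not given by the labels. *Tfap2c* went from a mean of 15.9 ± 0.537 (SD, n = 3) to 190 ± 19.5 between AFSCs and ASCs and from 271 ± 17.1 to 145 ± 9.53 between ESCs and ESC-ASCs. *Kit* went from 8.89 ± 3.93 to 159 ± 58.3 and from 351 ± 102 to 97.7 ± 15.5. The derivatives in ABCL medium were therefore closer to each other than the starting cell types were for both genes. *Prdm1* went from 2.13 ± 0.799 to 13.6 ± 1.91 on the first path and from 17.2 ± 0.967 to 17.7 ± 2.00 on the second. *Nanos3* rose from 3 counts to 23.9 ± 7.82 per kb on the first path, and on the second it fell from 77.6 ± 24.3 to 3.43 ± 0.864.

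The difference between the paths, a contrast added after the data had been seen, was called for 5 of the 6 members, with 58.5% of all tested genes called. It was 4.47 on the log2 scale for *Tfap2c* (SE 0.17, adjusted p = 1.37e-13), 5.97 for *Kit* (SE 0.39, adjusted p = 2.03e-10), 2.58 for *Prdm1* (SE 0.34, adjusted p = 3.18e-06) and 4.38 for *Itgb3* (SE 0.57, adjusted p = 4.45e-06). For *Nanos3* the contrast was also called (adjusted p = 2.89e-08). *Dnd1* gave -0.95 (95% interval -1.98 to 0.08, adjusted p = 0.106), and passed the test without AFSC replicate 3 (-1.28, adjusted p = 0.0242), AFSC replicate 2 (-1.20, adjusted p = 0.0474) or ESC replicate 1 (-1.21, adjusted p = 0.048). Over all omissions of 1 sample it ranged from -1.28 to -0.19, and without the 4 samples that stood apart it was -0.33 (adjusted p = 0.383). The paths cannot be told apart from differences between the lines used, and the ESC-ASC libraries were the deepest. The contrast also contains the difference between the starting cell types, AFSCs and ESCs, which was already called for the same 5 members.

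**Figure D4:**
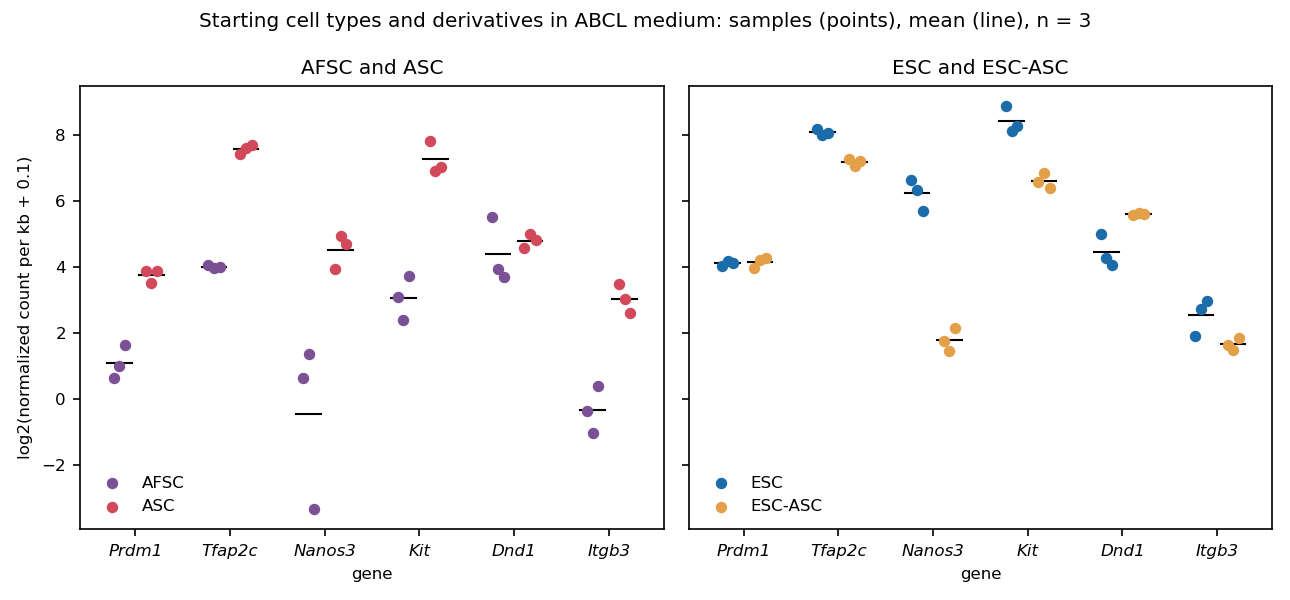
Level of the 6 genes, as log2(normalized count per kb + 0.1), in starting cell types and their derivatives in ABCL medium, with AFSCs and ASCs on the left and ESCs and ESC-ASCs on the right; points are samples and lines are means of the log2 values (n = 3). On the left every gene but *Dnd1* was called higher in the derivative, where 64% of all tested genes were called. On the right *Nanos3*, *Kit*, *Tfap2c* and *Itgb3* were called lower, where 60.1% of all tested genes were called. A sample with 0 counts sits at the bottom of the scale.

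Markers of other cell types were set beside these results. Trophoblast genes (5 genes), of interest because *Tfap2c* is a trophectoderm factor, summed to 149 to 163 per kb in ESC-ASCs, 88.6 to 131 in ESCs, 78.1 to 110 in ASCs and 15.5 to 30.5 elsewhere; 2 of the 5 were at 0 in ESC-ASCs. The genes of this list had no common direction. Of the 3 tested, 1 was higher and 1 lower than in ESCs in each of ASCs, EpiLCs and AFSCs. In ESC-ASCs 2 were higher and 1 lower, and in EpiSCs 1 was higher and 2 lower. The part of the trophoblast genes in the *Tfap2c* result was not tested. Primitive endoderm genes (6 genes) summed to 70.2 to 71.5 in EpiSCs and to 9.58 to 25.1 elsewhere, beside the high *Kit* of EpiSCs. Of the 5 tested, 3 were higher and 2 lower in EpiSCs than in ESCs. Blood and endothelial genes (5 genes) summed to 7.58 to 11.1 in ASCs, 6.76 to 9.03 in ESC-ASCs and 5.01 to 7.64 in ESCs. Their sum was 5.28 to 8.91 in AFSCs, 3.50 to 5.08 in EpiLCs and 3.75 to 5.13 in EpiSCs. The part of either list in the *Kit* values was not tested. Genes of 2-cell-like cells (5 genes) summed to 1894 to 2373 in ASCs and to at most 206 elsewhere, and fibroblast genes (5 genes) to 75.3 to 116 in ASCs and 17 to 63.8 elsewhere. The fibroblast genes had no common direction, since of the 4 tested 2 were higher and 2 lower in ASCs than in ESCs. The part of the 2-cell-like and fibroblast genes in the ASC values was not tested.

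Across the 18 samples, the log2 levels of *Prdm1* and *Tfap2c* had a Pearson r of 0.86, *Tfap2c* and *Itgb3* of 0.91 and *Prdm1* and *Kit* of 0.86, whereas *Dnd1* had an r of -0.27 to 0.06 with the other members. The points share their cell types, 3 at a time, and are given as a description. By the same measure the genes most like each member were, for *Prdm1*, *Zfyve26* (0.981), *Cbfa2t2* (0.974) and *Serpinb6c* (0.972). *Cbfa2t2* encodes a co-repressor known to act with PRDM14 in germ cells. For *Tfap2c* they were ENSMUSG00000102367 (0.994), *Gm28040* (0.993) and *Mov10* (0.993), the first pair being overlapping genes that share fragments. For *Nanos3* they were *Dlgap1* (0.913), *Dnajb6* (0.911) and *Tmprss5* (0.893), and for *Kit* *Epha4* (0.967), *Syne2* (0.957) and *Tanc1* (0.957). The closest to *Dnd1* were *Rsph1* (0.920), *Spag1* (0.895) and *Tctex1d2* (0.890), and to *Itgb3* they were *Myof* (0.974), *Gm23497* (0.974), which lies within *Tfcp2l1*, and *Wnk1* (0.968).

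The wider pathway was taken from fixed lists, whose counts are to be read against the share of all tested genes called in the same comparison with ESCs. That share was 50.3% for ASCs, 60.1% for ESC-ASCs, 55.3% for EpiLCs, 60.5% for AFSCs and 61.2% for EpiSCs. Among transcription factors of primordial germ cell fate (11 genes, all tested), 2 were higher and 4 lower in ASCs than in ESCs, 1 and 6 in ESC-ASCs, 2 and 7 in EpiLCs, and 5 and 6 both in AFSCs and in EpiSCs. *Prdm14*, the partner of *Prdm1*, had a level of 164 ± 17.6 per kb in ESCs, 127 ± 14.1 in ASCs and 35.0 ± 1.64 in ESC-ASCs. It gave 4 counts in EpiLCs, 0 in AFSCs and 3 in EpiSCs, so that *Prdm14* was all but uncounted where *Tfap2c* was low. Between the cells in ABCL medium, *Prdm14* was lower in ESC-ASCs than in ASCs by 1.85 on the log2 scale (SE 0.17, adjusted p = 1.9e-07). *Eomes*, a T-box factor of the primitive streak, was 2.37 ± 0.417 per kb in ESCs, 21.6 ± 3.83 in ASCs, 19.7 ± 1.24 in ESC-ASCs and 12.5 ± 2.31 in EpiLCs, and was highest in AFSCs (159 ± 33.8) and EpiSCs (472 ± 27.6). *Sox17*, an endoderm factor, reached 34.6 ± 2.76 in EpiSCs and was at most 2.76 ± 0.280 in the other groups.

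The inducing signals (10 genes, 9 tested) were higher in 3 and lower in 0 cases in ASCs than in ESCs, and 2 and 1 in ESC-ASCs. *Bmp4*, the main inducer of germ cells in the embryo, was 6.73 ± 1.77 per kb in ESCs, 55.6 ± 8.01 in ASCs and 43.2 ± 2.42 in ESC-ASCs (ASCs over ESCs by 3.04 on the log2 scale, SE 0.24, adjusted p = 1.27e-08). *Wnt3* was 4.47 ± 1.74 in ESCs, 11.9 ± 1.66 in ASCs and 2.70 ± 0.488 in ESC-ASCs, and reached 136 ± 45.1 in AFSCs and 136 ± 15.8 in EpiSCs. EpiLCs had 4 of these genes higher and 1 lower than ESCs, AFSCs 5 and 0, and EpiSCs 4 and 1. Of all tested genes, 26.4% were higher in ASCs than in ESCs. The share was 30.6% for ESC-ASCs, 28.7% for EpiLCs, 29.7% for AFSCs and 29.2% for EpiSCs.

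Early germ cell markers (9 genes, all tested) were divided, with 4 higher and 3 lower in ASCs than in ESCs, 4 and 5 in ESC-ASCs, 3 and 5 in EpiLCs, 2 and 5 in AFSCs, and 2 and 6 in EpiSCs. *Dppa3* (Stella), a classical marker of primordial germ cells that is also maternal, was 2439 ± 996 per kb in ESCs, 252 ± 55.9 in ASCs, 275 ± 54.4 in ESC-ASCs and 150 ± 47.6 in EpiLCs, with 2 counts in AFSCs and 1 in EpiSCs. *Ifitm1* (Fragilis2) was 2.26 lower on the log2 scale in ASCs than in ESCs (SE 0.17, adjusted p = 5.59e-09). *Utf1*, in contrast, was highest in EpiLCs, 4.2 above ESCs (SE 0.24, adjusted p = 2.44e-11), as *Dnd1* was. *Fut4* was counted 0 times in ESCs, 0 times in AFSCs and 104 times in EpiSCs.

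Genes of later germ cells (7 genes, all tested) were largely higher than in ESCs in ASCs (5 higher, 1 lower), ESC-ASCs (6 and 1) and EpiLCs (5 and 1), and lower in AFSCs and EpiSCs (1 and 6 in each). Their median log2 fold change was 2.12, 2.60 and 1.83 in the first 3 and -3.53 and -4.33 in the last 2, where the medians over all genes lay between -0.04 and 0.06. *Mael*, a piRNA pathway gene, was 4.15 ± 0.815 per kb in ESCs, 51.0 ± 15.6 in ASCs, 91.5 ± 5.09 in ESC-ASCs and 115 ± 8.21 in EpiLCs, with 0 counts in AFSCs and 1 in EpiSCs. *Stra8*, which is induced at the entry to meiosis, was 5.27 ± 2.23 in ESCs and 86.5 ± 15.3 in ASCs (4.08 on the log2 scale, SE 0.31, adjusted p = 6.19e-09). *Dazl*, which licenses germ cells for gametogenesis, followed *Nanos3* in its order from ESCs (432 ± 124) through ASCs (250 ± 23.1) to ESC-ASCs (46.7 ± 2.07), and gave 0 counts in AFSCs and 1 in EpiSCs. AFSCs and EpiSCs were thus low both in *Tfap2c* and in most of the later genes, whereas EpiLCs were low in *Tfap2c* with several later genes high.

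Partners of the members (9 genes, all tested) showed no common direction, with 3 higher and 1 lower in ASCs than in ESCs and 4 and 3 in EpiSCs. *Kitl*, the ligand of KIT, was low in every group, between 0.892 ± 0.253 per kb in ESC-ASCs and 3.10 ± 0.302 in EpiSCs. *Cxcl12*, the chemokine that guides migrating germ cells, was 0.906 ± 0.402 in ESCs, 73.3 ± 14.5 in EpiLCs and 64.4 ± 7.73 in EpiSCs, and its receptor *Cxcr4* was highest in EpiSCs at 43.6 ± 3.65. *Itga2b*, an alpha chain that pairs with the *Itgb3* product, was 1.21 ± 0.888 in ESCs and 4.89 ± 1.12 in ASCs (2.14 on the log2 scale, SE 0.45, adjusted p = 0.000646).

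Of the paralogues (11 genes, 7 tested), 3 were higher and 2 lower in ASCs than in ESCs and 1 and 4 in ESC-ASCs. *Tfap2a*, the AP-2 factor of neural crest and surface ectoderm, fell from ESCs through ASCs to ESC-ASCs, as *Nanos3* did. The order of the remaining groups differed between these genes. *Tfap2a* had a level of 58.6 ± 21.3 per kb in ESCs, 17.8 ± 4.25 in ASCs, 4.83 ± 0.757 in ESC-ASCs and 3.56 ± 0.259 in EpiLCs. It was 1.02 ± 0.672 in AFSCs and 1.14 ± 0.771 in EpiSCs, so that *Tfap2c* had the higher mean in every group. *Nanos1* was 25.3 ± 2.86 in ESCs and 5.89 ± 1.14 in AFSCs (lower by 2.09 on the log2 scale, SE 0.23, adjusted p = 2.38e-07), and had a higher mean than *Nanos3* in ESC-ASCs (13.1 ± 1.24), EpiLCs (12.2 ± 3.36), AFSCs and EpiSCs (7.0 ± 0.422, against 5.31 ± 4.18 for *Nanos3*). *Pdgfra*, a receptor of the same class as *Kit*, was 5.69 ± 0.514 in EpiSCs and at most 2.02 ± 0.622 in the other groups.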

How the data were processed

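PolyA RNA was sequenced from both ends, 3 samples of each of 6 cell types. The deposited values are raw fragment counts per gene. Per the file headers and methods, the authors used TopHat2 with GRCm38 and then featureCounts 1.5.0-p1 on Ensembl 86 exons, taking both ends mapped, an overlap of at least 10 bases, multi-mapping and multi-overlapping fragments, and no strand. Of 35773 genes, the 16901 that reached 10 counts in 3 or more samples were fitted over all 18 samples with edgeR 4.0.16 (TMM, robust quasi-likelihood F test, limma 3.58.1, R 4.3.3), and p was adjusted by Benjamini-Hochberg for each comparison; the common dispersion was 0.0283. The standard error is the absolute log2 fold change divided by the square root of F. Levels are counts per exonic kb after scaling by DESeq2 1.42.0 size factors. The scripts were tested on simulated counts. Intervals of ratios cover counting error only.

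The genes and lists were chosen with earlier results of these data known. Named were the 6 members, the 3 genes most like each by Pearson r of log2(level + 0.1), and at most 3 called genes per list and comparison with the largest changes, not all of which are given; *Kitl* and *Wdr55* were named after their values were seen. The contrast between the 2 conversions and the fit without 4 samples were added after the data were seen. Upstream windows were RefSeq's (GRCm38.p6). Figures used matplotlib 3.10.9 (Python 3.11.15, numpy 2.4.6, pandas 2.3.3). Bisulfite, transposon and embryo data were not analysed here.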

Additional observations from a re-analysis of the deposited data

Results flagged for a closer look

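The difference between the starting cell type and its derivative in ABCL medium differed between the paths from AFSCs and from ESCs for 5 of the 6 genes, by the test of that difference itself (AFSCs to ASCs minus ESCs to ESC-ASCs, edgeR, a contrast added after the data were seen). On the log2 scale the difference was 4.47 for *Tfap2c* (SE 0.171, adjusted p = 1.37e-13), 5.97 for *Kit* (SE 0.391, adjusted p = 2.03e-10), 2.58 for *Prdm1* (SE 0.344, adjusted p = 3.18e-06) and 4.38 for *Itgb3* (SE 0.571, adjusted p = 4.45e-06). For *Nanos3* the fitted value was 8.53 (SE 0.799, adjusted p = 2.89e-08), whose size depends on the 3 counts in AFSCs. *Prdm1* and *Itgb3* rose on the path from AFSCs, with *Itgb3* falling and *Prdm1* not detectably changed on the path from ESCs. Without the 4 samples that stood apart the values were 4.54, 5.35, 2.39, 4.28 and 8.69 in the same order. Of all tested genes, 58.5% passed this test, so the count of members that did is not particular to them. By its arithmetic the contrast is the difference of ESCs over AFSCs plus that of ASCs over ESC-ASCs. It therefore contains the difference between the starting cell types, which was already called for these 5 genes. AFSCs against ESCs gave -4.08 for *Tfap2c*, -5.28 for *Kit*, -2.97 for *Prdm1*, -2.94 for *Itgb3* and -5.77 for *Nanos3*.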

How the results depend on the processing

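The number of pairs called stayed within 1.5 times its reported value for each gene under every alternative run, 7 to 11 for *Dnd1*, 11 to 13 for *Itgb3*, 11 to 13 for *Kit*, 9 to 10 for *Nanos3*, 10 to 12 for *Prdm1* and 12 to 13 for *Tfap2c*, as did the counts over all genes. Some uncalled differences changed sign, and not all of them were near 0 in the reported fit. The largest reported log2 fold changes among them were 0.59 for *Nanos3* in EpiSCs against ESC-ASCs, -0.43 for *Dnd1* in EpiSCs against AFSCs and 0.42 for *Itgb3* in ASCs against ESCs. *Nanos3* in EpiSCs against EpiLCs gave 0.000299 with DESeq2, 0.0168 with no filter, 0.491 without the 4 samples that stood apart, and -0.82 to 0.55 with 1 sample left out. *Nanos3* in EpiSCs against ESC-ASCs ranged from -0.22 to 1.15 with 1 sample left out. *Prdm1* in ESC-ASCs against ESCs gave -0.00541 with only the 6 samples of the pair, -0.0129 without the 4 samples and -0.030 to 0.12 with 1 left out. *Dnd1* in AFSCs against ESCs gave -0.345 without the 4 samples and -0.62 to 0.47 with 1 left out, in EpiSCs against AFSCs 0.345 and -0.76 to 0.34, in AFSCs against ASCs -0.96 to 0.14 with 1 left out, and in EpiSCs against ESCs 0.000474 without the 4. *Itgb3* in ASCs against ESCs gave -0.0124 without the 4. The causes were not tested. Leaving out the only EpiLC sample with *Itgb3* counts gave no value for EpiSCs against EpiLCs. Depth limits *Nanos3* and *Itgb3* in the low groups.

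With replicate number added as a block, pairs called were again 11 for *Prdm1*, 13 for *Tfap2c*, 9 for *Nanos3*, 12 for *Kit*, 8 for *Dnd1* and 13 for *Itgb3*, and no call of a member changed. Same-numbered samples of different groups had a mean correlation of deviations of 0.0539 (-0.114 to 0.332, 45 pairs). Differently numbered samples had a mean of -0.0259 (-0.253 to 0.233, 90 pairs). The correlation was above 0.1 in 16 of the 45 pairs and in 12 of the 90. Of the 18 samples, 6 correlated best with their own number. What a shared number stands for is not given by the labels.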
